A study of Homo sapiens with 6 samples.

Results

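Beta-catenin, its partners and the secreted antagonists of Wnt signaling were examined in RH36 cells after transfection with pre-miR-27a. The group holds 10 genes (CTNNB1, APC, AXIN2, LEF1, SFRP1, SFRP2, FRZB, DKK1, DKK2 and DKK3), and every array probe that carries one of these gene names was taken. They amount to 22 of the 41000 probes and 10 of the 30484 gene names on the array. A probe was kept for testing when its spot was found on at least 5 of the 6 arrays, which left 18 of these 22 probes among 36469, with all 10 genes represented.

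RH36 is an established line of embryonal rhabdomyosarcoma, a soft tissue tumor of the skeletal muscle lineage, and it lacks the PAX3/FOXO1 fusion. Cells were transfected transiently with the miR-27a precursor (3 arrays) or with a negative control precursor, called pre-control (3 arrays). Per the labels both groups received SiPORT reagent, the precursor was used at 10 nM and the pre-miR-27a cells were analyzed at 48 hours, while no hour is given for the pre-control cells. The paper's methods name Lipofectamine and a higher concentration, and its results an earlier time for effects in RH36 cells. Which applies to these arrays was not settled. Total RNA from each culture was labeled with Cy3 and hybridized to a whole-genome Agilent array with 1 color. The labels call the arrays biological replicates 1 to 3 of each group and do not describe separate cultures further, so p-values measure the spread between these samples. A single cell line and a transient transfection limit the model, and miR-27a itself was not measured by the probes analysed here.

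In the canonical Wnt pathway, a destruction complex built on APC and axin proteins holds beta-catenin and marks it for degradation. Wnt ligands bound to Frizzled receptors and LRP co-receptors stop that complex, beta-catenin accumulates, enters the nucleus and activates genes together with LEF and TCF factors. Secreted frizzled-related proteins bind Wnt ligands, Dickkopf proteins act on the LRP co-receptors, and several of these antagonists are themselves targets of the pathway. Wnt signals take part in the formation of skeletal muscle in the embryo.

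The transfected agent is shown by the mature products of its hairpin, since the seed is what a microRNA pairs with in its target transcripts. The capitals mark the seed, bases 2 to 8 from the 5′ end, in the RefSeq sequences (GRCh38.p14, minus strand, chr19:13836447-13836467 and chr19:13836487-13836508). Among the human mature microRNAs of that table, 3 carry the seed of miR-27a-3p, namely miR-27a-3p, miR-27b-3p and miR-9985.
hsa-miR-27a-3p: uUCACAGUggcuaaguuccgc
hsa-miR-27a-5p: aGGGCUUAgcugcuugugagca

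Each array held 43376 spots outside the controls. Between 69.9% and 73.9% of these spots were well above background on the pre-control arrays, and 74.1% to 78.0% on the pre-miR-27a arrays. The arrays of the 2 groups were on 2 different slides, 1 for each group, and an effect of the slide cannot be told apart from one of the transfection in any value given here. Local background had a median of 74.5 to 76 intensity units over the spots of the pre-control slide and of 52.5 to 53 over those of the pre-miR-27a slide. At the spots of the 10 genes it was 62 to 84.5 and 46.5 to 62. Its part in the values of dim probes was not tested. Of 10 skeletal muscle markers, 9 were kept and all 9 were well above background on every array, with a summed signal of 265463 to 387258 on pre-control and 249735 to 376624 on pre-miR-27a arrays. Among markers of other cells, PTPRC and LCP1 (leukocyte), PECAM1 (endothelium) and CDH1 and TACSTD1 (epithelium) stayed below that limit on each array. In the same lists 2 of 5 leukocyte markers (CD14 and CD3E), 2 of 4 endothelial (TEK and VWF) and 3 of 5 epithelial ones (KRT8, KRT18 and CLDN4) were above it on all 6. The summed signal of the 5 leukocyte markers was 369 to 411 on pre-control and 269 to 289 on pre-miR-27a arrays, and CD14 (log2 difference −0.71) and CD3E (−0.44) passed the test as lower, while a second CD3E probe gave −0.05. Among 5 kept epithelial markers KRT18 was called higher and KRT8 lower, with sums of 2653 to 2857 and 2385 to 2602. By their brightest probes, 0 of the kept muscle (9), fibroblast (5), endothelial (4) and neuronal (3) markers were called (3, 0, 0 and 1 at an unadjusted limma p under 0.05), but a second probe of the muscle gene CHRNA1 was called higher (0.95). With the replicate block, 4 muscle, 1 fibroblast (COL1A1) and 1 neuronal marker (TUBB3) were called lower, and the leukocyte marker LCP1 higher. Summed signals were 34289 to 61403 and 46065 to 79852 for fibroblast, 198 to 368 and 170 to 270.4 for endothelial and 28188 to 32341 and 23390 to 24956 for neuronal markers. The part of these lists in the results was not tested.

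None of the 18 tested probes of the 10 genes passed the test for a difference between pre-miR-27a and pre-control (0 of 18, limma with Benjamini-Hochberg adjustment over 36469 probes, adjusted p under 0.05). Over the whole array the share called was 7.83%, with 3.95% higher and 3.88% lower. At an unadjusted p under 0.05, 1 of the 18 probes (5.56%) passed, a dim probe of APC, against 24.8% of all probes. The smallest adjusted p among the 18 was 0.197. Group means were higher with pre-miR-27a for 9 probes and lower for 9, with a median log2 difference of 0.05 beside −0.02 over all probes. That split includes dim probes. Among the 11 probes well above background on all 6 arrays, 4 were higher and 7 lower, with a median of −0.11. In RNA from a whole culture, fewer cells of a kind and less RNA per cell cannot be told apart.

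Precision set how much this count can say. The standard error of the log2 difference ranged from 0.08 to 0.60 over the 18 probes, with a median of 0.29, beside a median of 0.14 over all probes. To be called at these standard errors, a probe would have needed a log2 difference of 0.39 to 2.83. On all 6 arrays, 11 of the 18 probes were well above background, and they cover every gene but SFRP2. For these 11 the largest log2 difference was 0.47 in size, and 8 of the 11 had a 95% interval inside a 2-fold change either way. The other 3 were both SFRP1 probes and DKK1.

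**Figure D1:**
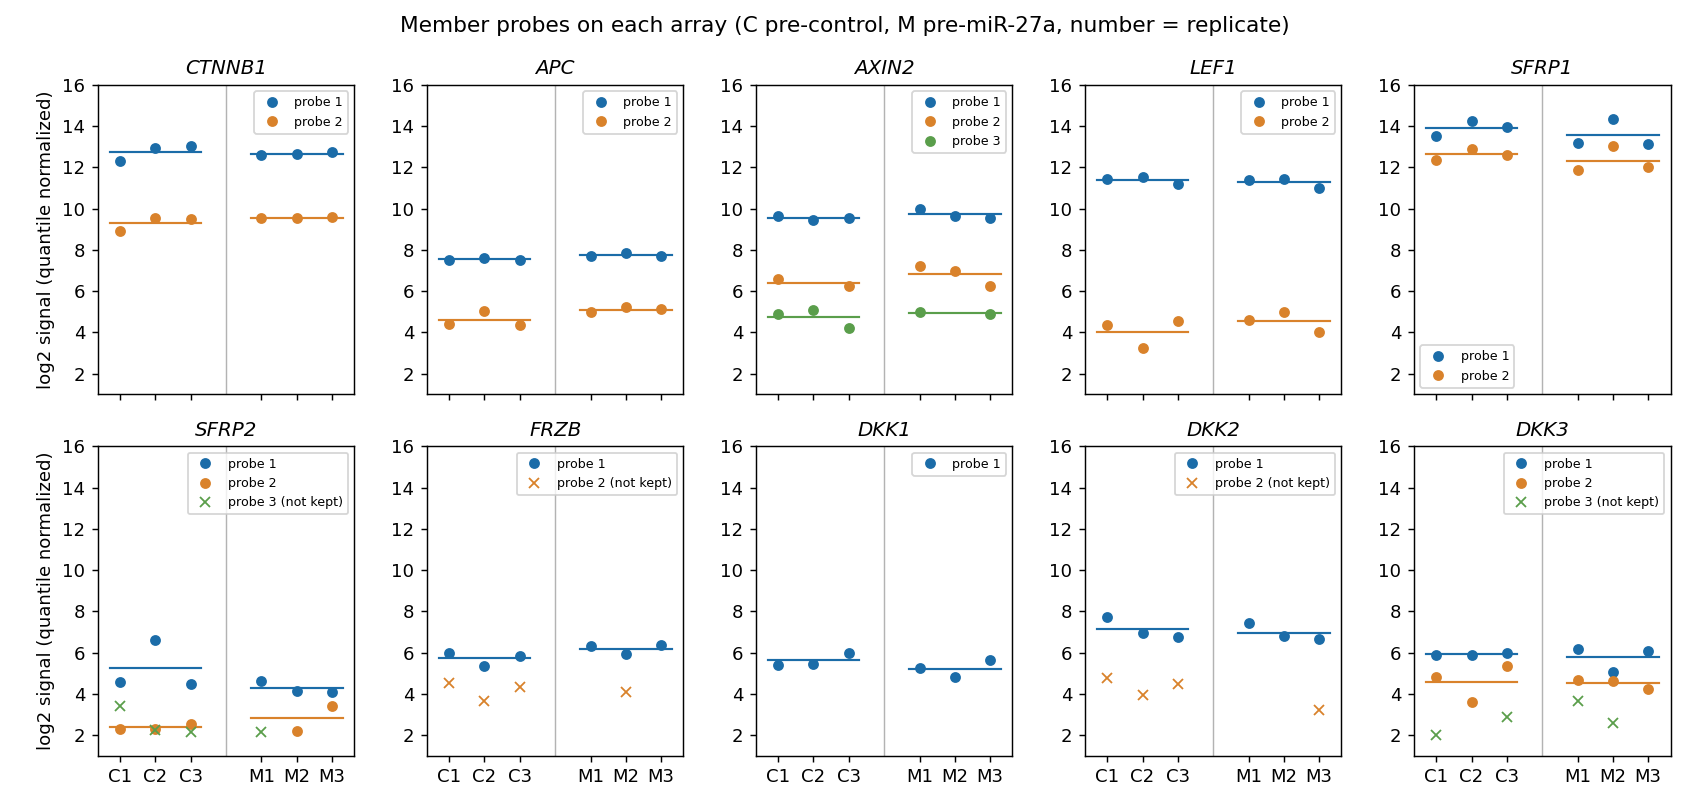
Quantile-normalized log2 signal of every probe of the 10 genes on the 3 pre-control (C1 to C3) and 3 pre-miR-27a (M1 to M3) arrays. Points are arrays, lines are group means of the tested probes, and crosses are probes that were not kept; the brightest SFRP1 probe lies between 13.15 and 14.33 and the SFRP2 probes lie at 6.63 or below.

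CTNNB1 encodes beta-catenin itself, which also links cadherins to the cytoskeleton. Its brighter probe (A_23_P29495, printed 10 times on the array, hg18 chr3:41256753-41256812, plus strand) read log2 signals of 12.32, 12.94 and 13.03 on pre-control replicates 1, 2 and 3. The pre-miR-27a arrays read 12.62, 12.63 and 12.73. All 3 lay within the range of the pre-control arrays, whose lowest value was replicate 1. The means were 12.76 ± 0.39 and 12.66 ± 0.06 (SD, n = 3 each), and the log2 difference was −0.10 (SE 0.20, 95% interval −0.60 to 0.40, limma adjusted p = 0.809).

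A second CTNNB1 probe (A_23_P29499, chr3:41256258-41256317), which starts 495 bases upstream of the first, read 8.93, 9.52 and 9.50 on pre-control and 9.56, 9.56 and 9.57 on pre-miR-27a arrays. The groups did not overlap, but 2 of the pre-control arrays lay just below the pre-miR-27a arrays and replicate 1 well below them. The log2 difference was 0.25 (SE 0.18, 95% interval −0.18 to 0.68, limma adjusted p = 0.445), and an exact two-sided permutation test gave p = 0.1, the smallest that 3 against 3 arrays allow. Without pre-control replicate 1 the difference was 0.05. Both CTNNB1 probes were low on that array, their differences had opposite signs and neither passed the test.

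APC is a scaffold protein of the destruction complex, beside the axin proteins. Its brighter probe (A_23_P70213, printed 10 times, chr5:112208721-112208780, plus strand) read 7.53, 7.62 and 7.49 on pre-control and 7.70, 7.83 and 7.69 on pre-miR-27a arrays. Every pre-miR-27a array was above every pre-control array, and within replicate numbers the log2 difference was 0.18, 0.22 and 0.20. The means were 7.54 ± 0.07 and 7.74 ± 0.08 (SD, n = 3 each), a log2 difference of 0.20 (SE 0.08, 95% interval −0.01 to 0.41, limma adjusted p = 0.216). As a fold this is 1.15, with an interval of 0.994 to 1.32. The exact permutation test was again at its smallest value of 0.1.

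The other APC probe (A_24_P918740) has an interval of 5112 bases in the files (chr5:112139280-112144391), longer than a probe. It read 4.40, 5.02 and 4.38 on pre-control arrays, none of them well above background, and 4.97, 5.21 and 5.11 on pre-miR-27a arrays, all of them well above background. The groups overlapped because pre-control replicate 2 was above pre-miR-27a replicate 1. The mean signal with pre-miR-27a was 1.33-fold the mean detection floor of the pre-control arrays. That ratio leaves out the spread between arrays and is not a sure minimum. The fit gave a log2 difference of 0.50 (SE 0.20, limma adjusted p = 0.197). As a fold this is 1.41, with an interval of 1.005 to 1.99, and the probe was not called. With normexp background correction the difference was 0.13. That correction added an offset of 50 intensity units, which by itself makes log2 differences of dim probes smaller. The same limit holds for every normexp value of a dim probe given below. The lowest normalized log2 signal that still counted as well above background averaged 4.68 on the pre-control and 3.82 on the pre-miR-27a arrays, which moves with this probe's detection, and its part in that was not tested.

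AXIN2, an axin scaffold and a widely used target gene of beta-catenin, had 3 probes. The brightest (A_23_P148015, chr17:60955851-60955910, minus strand) read 9.65, 9.44 and 9.53 on pre-control and 9.99, 9.65 and 9.56 on pre-miR-27a arrays. The groups overlapped, with the highest value on pre-miR-27a replicate 1. The log2 difference was 0.19 (SE 0.14, 95% interval −0.15 to 0.53, limma adjusted p = 0.459), made up of 0.34, 0.21 and 0.03 within replicates 1, 2 and 3, and it was 0.06 without pre-miR-27a replicate 1. Each of the dimmer AXIN2 probes was missing on 1 array, which the fit left out, and they gave log2 differences of 0.42 (SE 0.32, limma adjusted p = 0.502) and 0.20 (SE 0.28, limma adjusted p = 0.720). The first of these ranged from 0.22 without pre-miR-27a replicate 1 to 0.69 without pre-miR-27a replicate 3, and was 0.25 without pre-control replicate 3. It was 0.68 where the filter let its missing array back in, 0.67 in the deposited values and 0.23 under normexp. All 3 AXIN2 probes had a higher mean with pre-miR-27a and none passed the test.

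LEF1 encodes a nuclear partner through which beta-catenin reaches its target genes. The brighter LEF1 probe (A_24_P20630, chr4:109188195-109188254, minus strand) read 11.44, 11.54 and 11.17 on pre-control and 11.38, 11.43 and 11.02 on pre-miR-27a arrays. The same-numbered arrays followed each other, with replicate 3 lowest in both groups and differences of −0.06, −0.11 and −0.16. The overall log2 difference was −0.11 (SE 0.16, 95% interval −0.50 to 0.28, limma adjusted p = 0.728). A dim LEF1 probe that lies 30707 bases away was well above background on 1 pre-control and 2 pre-miR-27a arrays, with a log2 difference of 0.51 (SE 0.42, limma adjusted p = 0.517), which was 0.21 under normexp and 0.11 without pre-control replicate 2.

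Of the 3 genes of the frizzled-related family, SFRP1 gave the signals with the widest spread among the bright probes. SFRP1 is a secreted protein that binds Wnt ligands and Frizzled receptors. One of its probes (A_23_P10127) read 13.54, 14.25 and 13.98 on pre-control and 13.18, 14.33 and 13.15 on pre-miR-27a arrays. Replicate 2 was highest in both groups, and the pre-miR-27a array of replicate 2 was the highest of all 6. Within replicates 1, 2 and 3 the log2 difference was −0.36, 0.08 and −0.83, and overall it was −0.37 (SE 0.38, 95% interval −1.30 to 0.56, limma adjusted p = 0.604).

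The second SFRP1 probe (A_23_P10121) read 12.37, 12.91 and 12.60 on pre-control and 11.86, 13.02 and 12.01 on pre-miR-27a arrays, and it ordered replicate 2 in the same way. Its log2 difference was −0.33 (SE 0.34, 95% interval −1.17 to 0.51, limma adjusted p = 0.607). Across the 6 arrays the 2 probes had a Pearson r of 0.99, given as a description of the same 6 libraries. The size of the SFRP1 difference depended on single arrays. Without pre-miR-27a replicate 2 the log2 difference was −0.76 for the first probe and −0.69 for the second (limma adjusted p = 0.170 and 0.143), and without pre-control replicate 1 it was −0.56 for the first. It shrank to −0.17 and −0.19 without pre-miR-27a replicate 3, to −0.19 and −0.12 without pre-miR-27a replicate 1, and to −0.21 and −0.19 without pre-control replicate 2.

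FRZB, also called SFRP3, is a secreted antagonist first known from developing cartilage. Its tested probe (A_23_P10902, chr2:183407126-183407185, minus strand) read 5.98, 5.35 and 5.85 on pre-control and 6.32, 5.92 and 6.34 on pre-miR-27a arrays. The groups overlapped at replicate 2, which was lowest in both, yet each pre-miR-27a array was above the pre-control array of its own number, by 0.34, 0.57 and 0.50. The means were 5.73 ± 0.33 and 6.19 ± 0.24 (SD, n = 3 each), a log2 difference of 0.47 (SE 0.21, 95% interval −0.05 to 0.98, limma adjusted p = 0.240). In the fit that blocks on replicate number, the standard error fell to 0.07 and FRZB passed the test (limma adjusted p = 0.0420), the only one of the 18 probes to do so.

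That blocked call stands beside a larger background, since with the block 14.9% of all probes were called and 7.24% were called higher. Without the block, the FRZB difference was 0.28 under normexp background correction and also 0.28 without pre-control replicate 2 (limma adjusted p = 0.426). The normexp offset by itself makes the difference of a probe this dim smaller. A second FRZB probe was found on 4 arrays only and was not kept.

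SFRP2, the third family member, was dim. Its brightest probe read 4.58, 6.63 and 4.50 on pre-control and 4.63, 4.15 and 4.09 on pre-miR-27a arrays, with 2 arrays of each group well above background. Only pre-control replicate 2 was high, and the log2 difference of −0.95 (SE 0.60, limma adjusted p = 0.401) became −0.25 without it. On none of the 6 arrays did the remaining pair of SFRP2 probes rise well above background, so no level or direction can be read from them.

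**Figure D2:**
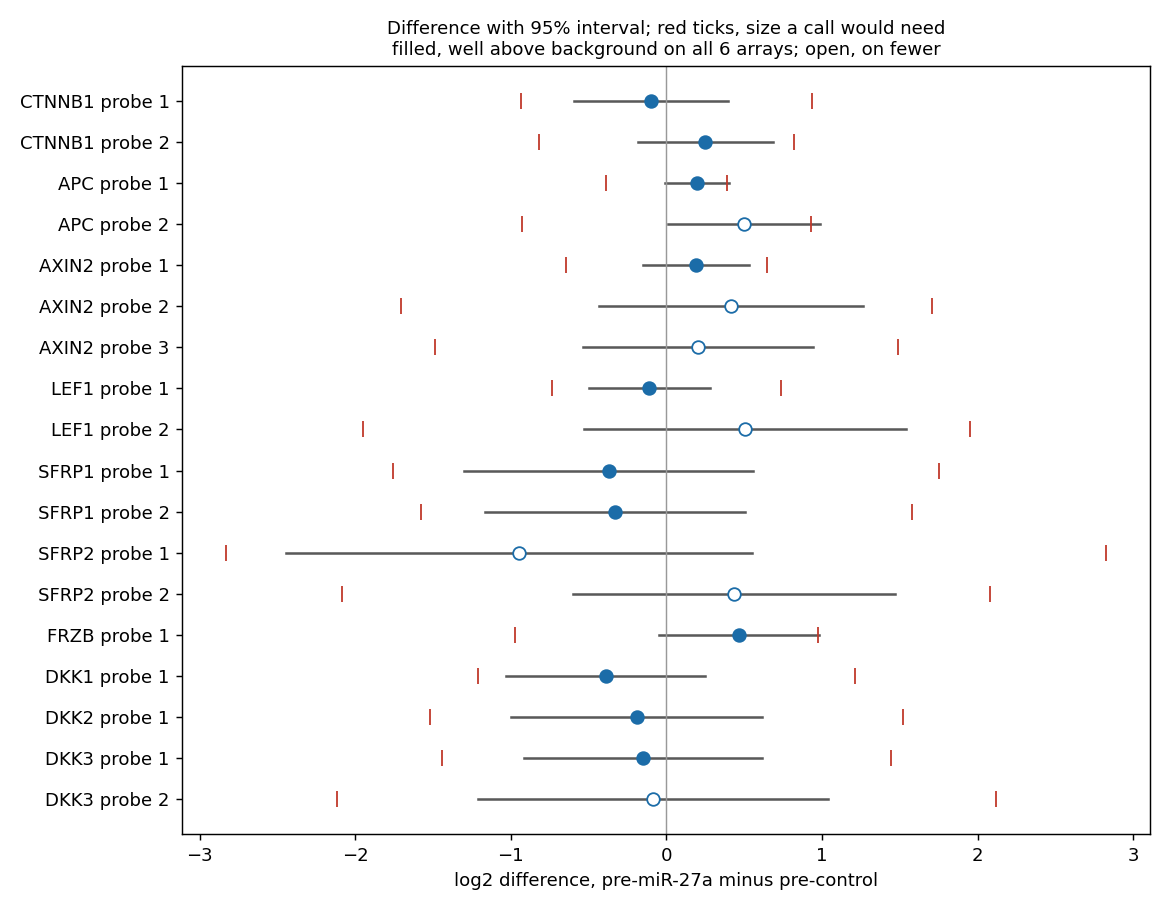
Log2 difference between pre-miR-27a and pre-control for the 18 tested probes, with 95% intervals from the limma comparison of 3 against 3 arrays. Red ticks show the size each probe would have needed to be called, filled points are the 11 probes well above background on all 6 arrays, and no point lies beyond its ticks.

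DKK1 is a Dickkopf antagonist that binds the LRP co-receptors and is itself switched on by Wnt signals in many cells. Its only probe (A_23_P24129, chr10:53746693-53746752, plus strand) read 5.39, 5.47 and 5.99 on pre-control and 5.23, 4.82 and 5.63 on pre-miR-27a arrays. Each pre-miR-27a array was below the pre-control array of its number, with differences of −0.16, −0.65 and −0.36, but the groups overlapped because pre-miR-27a replicate 3 exceeded pre-control replicates 1 and 2. The log2 difference was −0.39 (SE 0.26, 95% interval −1.03 to 0.25, limma adjusted p = 0.417). It was −0.19 without pre-miR-27a replicate 2 and −0.21 without pre-control replicate 3. Under normexp background correction it was −0.10, where the offset by itself makes differences of dim probes smaller.

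The region around the DKK1 start site is shown because, of the promoter windows of these genes that were examined, only it holds CTTTGA. These letters are 1 form of the core read by LEF and TCF factors, and other forms were not searched or marked. Windows of 250 bases before to 50 after a start site were searched for CTTTGA on either strand, which reads TCAAAG where it lies on the other one. Of 35116 such windows, 12.92% held a match and 1.29% held 2 or more. Examined among them were 7 windows of 6 of the 10 genes (CTNNB1, APC with 2, LEF1, SFRP2, FRZB and DKK1). Of these only DKK1 had matches, 2 of them, whose first letters lie 149 and 95 bases before the start. No window of SFRP1, AXIN2, DKK2 or DKK3 was examined, so whether these genes have matches is not known. A match is no evidence of binding, and the DKK1 probe was not called. The window is given on the plus strand of GRCh38.p14 (chr10:52314031-52314330, RefSeq), with the matches in capitals.
DKK1 start site window: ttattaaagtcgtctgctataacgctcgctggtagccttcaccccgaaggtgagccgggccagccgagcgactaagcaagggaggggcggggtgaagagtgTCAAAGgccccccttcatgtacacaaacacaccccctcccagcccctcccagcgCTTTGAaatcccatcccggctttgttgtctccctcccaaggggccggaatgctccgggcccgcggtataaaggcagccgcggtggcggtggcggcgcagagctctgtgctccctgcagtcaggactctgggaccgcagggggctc

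DKK2 acts on the same co-receptors, as an antagonist or a weak agonist depending on the cell. The tested DKK2 probe (A_23_P155848, chr4:108063099-108063158, minus strand) read 7.74, 6.97 and 6.76 on pre-control and 7.43, 6.81 and 6.66 on pre-miR-27a arrays. Replicate 1 was highest in both groups and the groups overlapped, while the same-numbered arrays differed by −0.31, −0.16 and −0.10. The log2 difference was −0.19 (SE 0.33, limma adjusted p = 0.773), and it was 0.10 without pre-control replicate 1. A second DKK2 probe was found on all 3 pre-control arrays and on 1 pre-miR-27a array, where it was not well above background. On the pre-control arrays it was well above background on 2, and the probe was not kept, so it has no test and no fold is given.

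DKK3, a divergent member that does not act through the LRP co-receptors in the way of DKK1, had 3 probes. The brightest (A_23_P162047, chr11:11941389-11941448, minus strand) read 5.88, 5.90 and 5.98 on pre-control and 6.16, 5.06 and 6.09 on pre-miR-27a arrays. The pre-miR-27a arrays of replicates 1 and 3 were above all pre-control arrays and replicate 2 was below them. The log2 difference was −0.15 (SE 0.31, limma adjusted p = 0.811), and 0.20 without pre-miR-27a replicate 2. A second DKK3 probe gave −0.08 (SE 0.45, limma adjusted p = 0.935), and the third did not reach that limit on any of the 6 arrays.

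**Figure D3:**
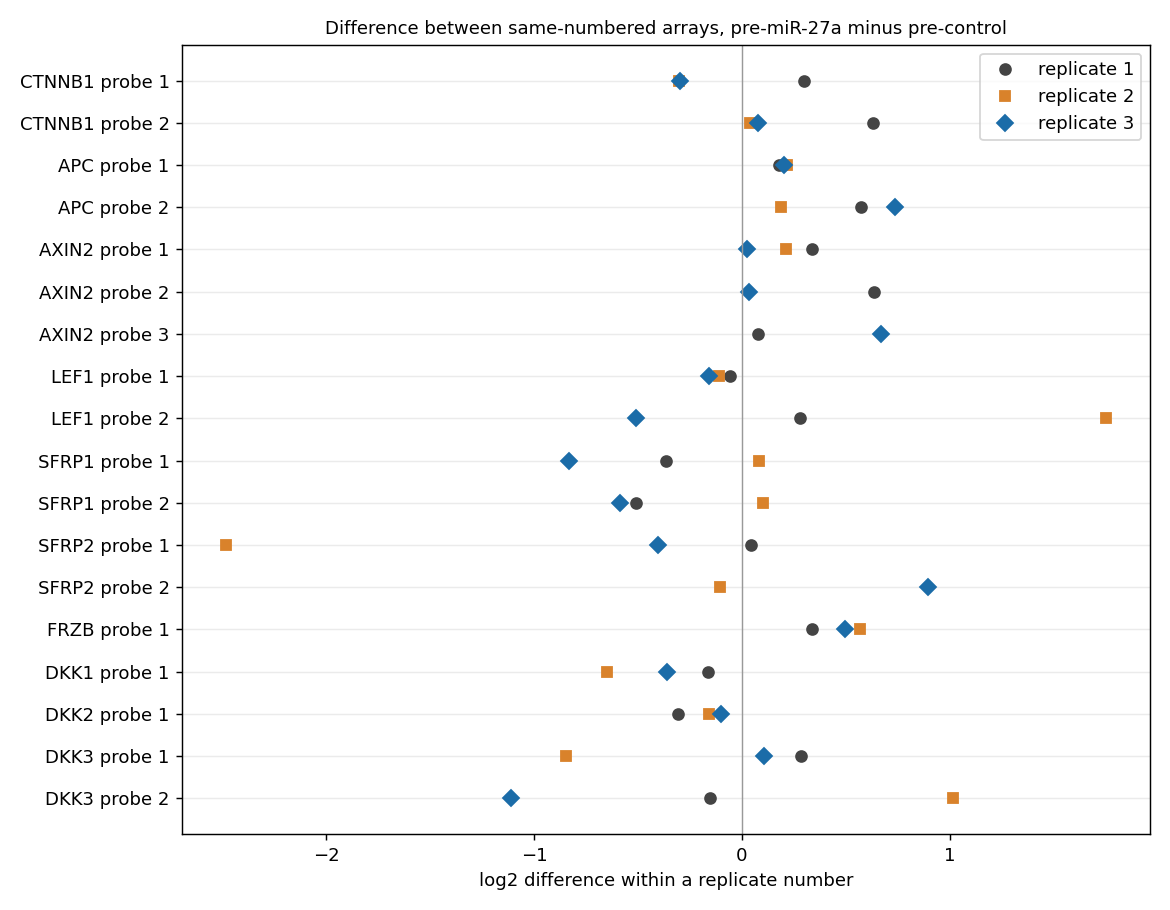
Log2 difference between the pre-miR-27a and pre-control arrays of the same replicate number for the 18 tested probes, 1 point per replicate; a probe missing on an array has 2 points. The 3 points of APC probe 1 lie at 0.18 to 0.22 and those of FRZB at 0.34 to 0.57, while SFRP1 has replicate 2 on the other side of 0 from replicates 1 and 3.

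Blocking on replicate number made standard errors smaller for 16 of the 18 probes, with a median of 0.17 in place of 0.29. The same held over the array, where the median fell from 0.14 to 0.08. Limma draws each standard error toward a value shared by all probes. A smaller one therefore does not show replicate structure in a single probe. With the block, 4 of the 18 probes had an unadjusted p under 0.05, against 37.3% of all probes. Groups of arrays did not overlap for 2 of the 18 probes, CTNNB1 probe 2 and APC probe 1, against 32.5% of all probes. In both the pre-miR-27a arrays were the higher ones, as for 14.8% of all probes.

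For each of the 9 genes with a bright probe, the gene of the other Wnt lists with the most similar profile over the 6 arrays was found among 86 genes. APC was most like PYGO1 (Pearson r 0.99), FRZB most like CCND1 (0.96), DKK2 most like SFRP4 (0.96) and AXIN2 most like RUVBL1 (0.94). LEF1 was most like RYK (0.93), SFRP1 most like ROR1 (0.93) and DKK1 most like FZD9 (0.92). The least similar best matches were KREMEN1 for DKK3 (0.86) and TBX3 for CTNNB1 (0.77). These are maxima over many genes and 6 arrays that share slides and replicate numbers, and they describe the profiles only.

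The rest of the Wnt pathway was described with 116 further genes in 7 lists, of which 107 were kept, each by its brightest probe. Passing the test were 4 higher and 1 lower with pre-miR-27a, or 4.67% against the 7.83% of all probes. These shares are on unlike sets. The first counts genes by their brightest probe, 87 of 107 well above background on all 6 arrays, and the second all kept probes, dim ones included. Means were higher for 50 genes and lower for 57, with a median log2 difference of −0.02, beside −0.02 over all probes. With the replicate block 7 were higher and 5 lower. Among the lists, 16 of 19 Wnt ligands were kept, with 1 called higher and lower means for 14 of the 16 (median −0.11). Only 10 of the 16 were well above background on all 6 arrays. On none were WNT2, WNT7A, WNT8B and WNT9B, which all count among the 14, so their direction cannot be read. Of the 24 cytoplasmic regulators of beta-catenin, which include the destruction complex kinases, all were kept and none passed (0 of 24, median 0.08, 3 of them at an unadjusted p under 0.05).

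The 17 kept receptors and co-receptors held 1 called lower, the 19 nuclear partners 1 higher, the 11 other antagonists 1 higher and the 16 commonly cited target genes 1 higher. The 4 kept genes of Wnt secretion and the R-spondins held none, with 1 at an unadjusted p under 0.05.

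TCF7L1, a TCF factor that mainly represses Wnt target genes, read 11.42, 11.28 and 11.03 on pre-control and 12.19, 12.21 and 11.97 on pre-miR-27a arrays. The groups were clearly separated, with a log2 difference of 0.88 (SE 0.13, limma adjusted p = 0.0251). JUN, an AP-1 factor often listed as a beta-catenin target, rose from 11.54, 11.02 and 11.17 to 12.60, 12.26 and 12.20, a log2 difference of 1.11 (SE 0.18, limma adjusted p = 0.0274). It was the largest of the 5 called differences in these lists.

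WNT3, a ligand of the canonical pathway, rose from 9.76, 9.80 and 10.15 to 10.55, 10.69 and 10.73, a log2 difference of 0.75 (SE 0.13, limma adjusted p = 0.0326). ZNRF3, a surface ubiquitin ligase that removes Frizzled receptors and so acts as an antagonist, had a log2 difference of 0.86 (SE 0.14, limma adjusted p = 0.0267). Its second probe, well above background on all 6 arrays, gave 0.06 (limma adjusted p = 0.793), so the ZNRF3 probes disagreed. LGR6, a receptor for R-spondins, fell from 9.86, 10.18 and 9.75 to 9.11, 9.22 and 9.10, a log2 difference of −0.79 (SE 0.13, limma adjusted p = 0.0299), and a dim second probe gave 0.43 (limma adjusted p = 0.820).

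These 5 calls each held under the 9 alternatives that kept all 6 arrays and the brightest probe, but not in every fit that left an array out. Without pre-control replicate 1, JUN, TCF7L1 and ZNRF3 still passed, while WNT3 and LGR6 passed in 0 of the 6 fits that left out 1 array. Each of the other fits called 0 probes over the whole array, so failing there says nothing particular to these genes. Over the 6 fits the log2 difference stayed at 0.67 to 0.87 for WNT3 and at −0.88 to −0.66 for LGR6. Adjusted p-values over these limma fits ran from 0.0435 to 0.111 for the 5 genes. Beyond the brightest probes, a second probe of MYC (log2 difference −1.07) and one of CSNK1E (−0.47) were called lower and one of PYGO1 (0.70) higher, whereas the brightest probes of these 3 genes did not pass.

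**Figure D4:**
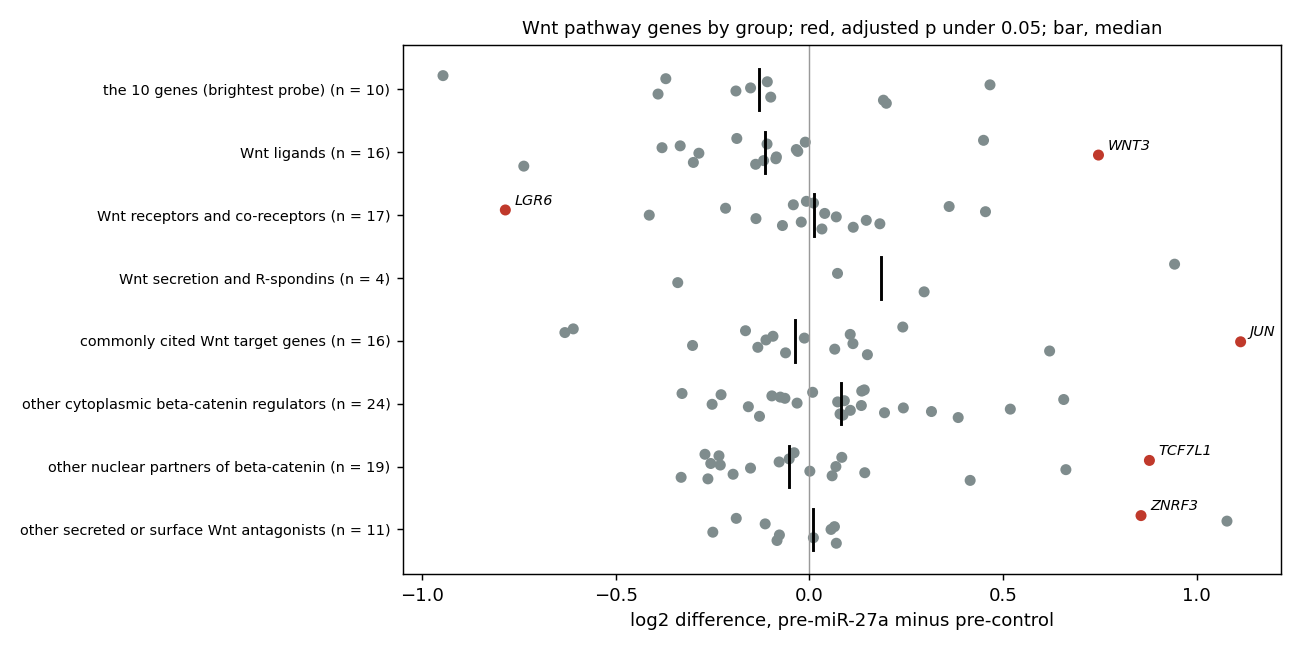
Log2 difference between pre-miR-27a and pre-control, 1 point per gene (brightest probe), for the 10 genes and for the 7 lists of other Wnt pathway genes. Bars are medians and red points passed the test; of the 107 other genes 5 are red and of the 10 genes none is (0).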

How the data were processed

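Expression was measured in RH36 cells with pre-miR-27a (3 arrays) or pre-control (3 arrays). The authors deposited spot intensities from Feature Extraction 10.5.1.1, background-subtracted within each array and not normalized between arrays. A deposited table of the authors' log2 values (33169 probes) matched quantile-normalized log2 signals computed here, to 0.0041 in the median and 1.16 at most.

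Control spots were left out, log2 processed intensity was quantile normalized, values of spots not found were set to missing, replicate spots were averaged, and probes missing on more than 1 array were removed. In R 4.3.3, with the data.table package (version 1.17.8) for reading, limma 3.58.1 compared the groups with Benjamini-Hochberg adjustment over 36469 probes at a threshold of 0.05. The code was tested on simulated data. Probe coordinates come from the array files (hg18). Probe 1 of a gene is its brightest.

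Replicate numbers in the labels were taken to pair the arrays, since arrays with the same number deviated from their group means together. Their correlations were 0.40, 0.46 and 0.41 over 31717 probes, against −0.27 to −0.12 for different numbers. Taking deviations from group means makes the latter negative on average once the former are positive, so they add no separate evidence. The study's methods name a two-class comparison and its results a paired one, and the main comparison here has no block. A fold against a group with no array well above background is a ratio of means. It is set against each array's lowest signal well above background or, where higher, the probe's own value. The spread between arrays is not part of it.

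Named outside the 10 genes are genes of the 7 Wnt lists whose brightest probe was called and was well above background throughout the higher group, and the most similar profile for each of the 10 genes. Second probes of MYC, CSNK1E, PYGO1, CHRNA1 and CD3E and single marker genes were named after their values were seen. The 10 genes and all lists were chosen with earlier results of these data known, and no set test was run. Marker lists covered skeletal muscle, epithelium, leukocyte, endothelium, fibroblast and neuronal genes. Alternatives were other scalings, background corrections, filters, flags and probe rules, the deposited values, a variance trend, the replicate block and leaving out each array. Normexp background correction used an offset of 50 intensity units. Columns of per-sample values left unused numbered 0. Array number limits the precision.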

Additional observations from a re-analysis of the deposited data

How the results depend on the processing

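No probe of the 10 genes was called (0) under any alternative but the replicate block, which called 1 higher (FRZB) and changed no other of these calls. The block raised calls over the array from 1440 higher and 1416 lower to 2641 and 2780, and those in the other Wnt lists from 4 and 1 to 7 and 5. With 1 array left out, calls over the array ran from 0 to 706 higher and 0 to 489 lower, above 0 only without pre-control replicate 1, while 7395 to 8730 probes had an unadjusted limma p under 0.05. The Wnt list calls then ran from 0 to 3 higher and 0 to 0 lower. Scaling to the 75th percentile gave 1275 higher and 1981 lower (39.2% higher in place of 50.4%), moved the median of all probes to −0.09, and called 3 Wnt genes lower. Normexp gave 7 higher and 4 lower among them, counting any probe gave 3 lower, and averaging probes gave 0 lower. SFRP2 probe 2 turned to −0.37 under 75th percentile scaling and DKK3 probe 2 to 0.14 under normexp. Leaving out single arrays turned the sign of CTNNB1 probe 1 (−0.32 to 0.032), AXIN2 probe 3 (−0.054 to 0.37), LEF1 probe 1 (−0.22 to 0.019), SFRP2 probe 2 (−0.20 to 0.97), DKK2 probe 1 (−0.42 to 0.10), and DKK3 probes 1 (−0.35 to 0.20) and 2 (−0.58 to 0.30). The causes were not tested. The slide block was not run, since each slide held 1 group. Of 201 single-gene values under alternatives with all arrays, 198 kept direction and side of the threshold, as did 102 of 138 with 1 array left out, where 27 lost their call. Dim probes limit SFRP2, DKK3 probe 2 and LEF1 probe 2.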
